A study of Mus musculus with 6 samples.

Results

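The miR-23, miR-27 and miR-24 microRNAs (miRNAs) are made from a pair of gene clusters, miR-23a-27a-24-2 and miR-23b-27b-24-1, and were followed here by name as 10 mature arms among the 1915 mature miRNAs listed in each library. The guide arms are mmu-miR-23a-3p, mmu-miR-23b-3p, mmu-miR-27a-3p, mmu-miR-27b-3p and mmu-miR-24-3p, and the opposite arms are mmu-miR-23a-5p, mmu-miR-23b-5p, mmu-miR-27b-5p, mmu-miR-24-1-5p and mmu-miR-24-2-5p. The species prefix is left out from here on. Small RNA was sequenced from E15.5 whole brains of wild-type C57BL/6 mice in 3 libraries of each sex. Each library pooled the RNA of 2 to 3 embryos that had been sexed by their gonads, so the spread between libraries is a spread between pools. Values are counts of reads on each mature miRNA, scaled to counts per 1000000 miRNA reads of the library (CPM). In tissue RNA, fewer cells of a type and less RNA per cell cannot be told apart.

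A precursor hairpin is cut into a pair of arms, 5p and 3p, and most often 1 arm is loaded into Argonaute and guides it to messenger RNAs through its seed, while the other arm is degraded. The 3 hairpins of each cluster are transcribed together as one primary transcript, and later steps of processing and decay can still set their mature levels apart. miR-23, miR-27 and miR-24 are known for roles in blood vessels, muscle and fat, and the miR-23b cluster is also studied in neural cells. Because both clusters encode all 3 families, the share of each family that comes from either cluster can be read only from arms whose sequences differ between them.

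Of the 10 arms, 9 matched a RefSeq entry (GRCm38.p6), and miR-23b-3p is given by name only. How similar it is to miR-23a-3p, and so how well their reads are told apart, was therefore not checked. The guide arms and the pair of miR-24 5p arms are shown because the comparisons between clusters rest on how similar they are. Capitals mark the seed, bases 2 to 8 from the 5′ end.
miR-23a-3p: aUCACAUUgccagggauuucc
miR-27a-3p: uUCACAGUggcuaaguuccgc
miR-27b-3p: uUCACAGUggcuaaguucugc
miR-24-3p: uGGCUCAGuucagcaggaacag
miR-24-2-5p: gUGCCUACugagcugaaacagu
miR-24-1-5p: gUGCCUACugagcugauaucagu

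miR-27a-3p and miR-27b-3p share their seed and their first 18 bases, and over 21 bases they differ only by C19U, counted from the 5′ end with the base of miR-27a-3p first. The split of reads between them therefore rests on 1 base near the 3′ end, and their separate levels are less certain than their sum. miR-24-2-5p and miR-24-1-5p share their seed and their first 16 bases. The mature miR-24-3p is the same from both clusters and is listed once, so its count is the sum over both.

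The hairpins were located in mm9, the build named in the submitters' processing notes, by exact match. On the plus strand of chromosome 13, Mir23b lies at 63401792 to 63401865, Mir27b at 63402020 to 63402092 and Mir24-1 at 63402516 to 63402583. These 3 hairpins span 792 bases inside an intron of the protein-coding gene 2010111I01Rik, on its strand, and overlap none of its exons. On the plus strand of chromosome 8, Mir23a lies at 86732417 to 86732491, Mir27a at 86732571 to 86732657 and Mir24-2 at 86732714 to 86732820. This second cluster spans 404 bases and overlaps no other annotated gene. Its hairpins lie 1757 to 2086 bases from the nearest protein-coding gene, Zswim4.

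The libraries held 14802675 to 59362011 reads on miRNAs, and 660 to 915 of the listed miRNAs had at least 1 read. Female library 2 stood apart, with the highest total, the fewest miRNAs detected and a median count over detected miRNAs of 1846.5, which was 218 to 352 elsewhere. Brain miRNAs (miR-9-5p, miR-124-3p, miR-128-3p and miR-137-3p) summed to 193179 to 211882 CPM in female and 162404 to 187906 CPM in male libraries. This sum was higher in every female than in every male library. Most of it was miR-9-5p, at 148598 to 195822 CPM over the libraries and not called by sex (edgeR adjusted p = 0.555). miR-137-3p had 37.9 to 169 CPM, and miR-128-3p overlapped between the sexes. Markers of some other cell types were higher in every male than in every female library. Summed levels for mesenchyme were 19184 to 22960 CPM in male against 4459 to 12438 CPM in female libraries. They were 5497 to 6139 against 388 to 1180 CPM for skeletal muscle, and 7990 to 8284 against 429 to 1133 CPM for epithelium.

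The 10 arms took 0.885% to 1.42% of all miRNA reads. Their summed level was 10888 ± 2017 CPM in females and 12882 ± 1119 CPM in males (SD, n = 3 libraries each), a difference that did not exceed the spread (exact permutation, two-sided p = 0.3). The smallest p that 3 libraries per sex allow in this test is 0.1. The male minus female difference of 1994 CPM was 973 CPM without female library 2, 2990 CPM without female library 3 and 975 CPM after TMM scaling. Most of the sum came from 4 guide arms, miR-24-3p, miR-27b-3p, miR-23b-3p and miR-23a-3p, and the 5 opposite arms together held 0.648% to 1.14% of it.

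**Figure D1:**
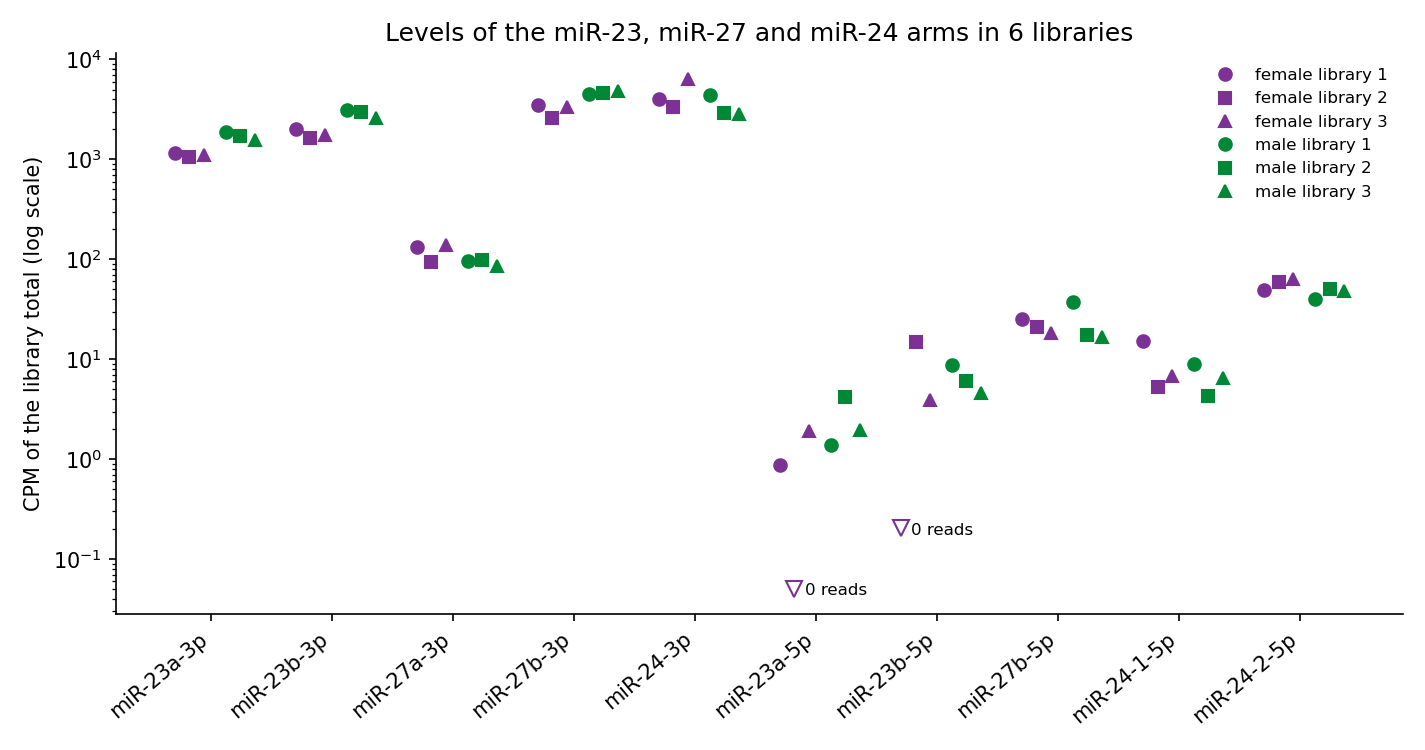
Level of each arm in CPM (log axis) in the 6 libraries, with 1 point per library and the sexes in separate colours. The 3p arms other than miR-27a-3p lie at 1060 to 6445 CPM, miR-27a-3p lies near 100 CPM, and the 5p arms lie below it. Open triangles stand at the floor of 3 counts where an arm had no read.

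miR-23b-3p, the guide arm of the first hairpin of its cluster, had 2006, 1649 and 1747 CPM in female libraries 1 to 3 and 3151, 2953 and 2609 CPM in male libraries 1 to 3. Every male library was above every female library. After TMM scaling the same held for 12.0% of all miRNAs tested, a share that was not taken on the CPM scale. The partner of miR-23b-3p, miR-23a-3p, had 1153, 1060 and 1113 CPM in the females and 1860, 1715 and 1556 CPM in the males. The sexes did not overlap for this arm either, and the ratio of miR-23b-3p to miR-23a-3p stayed between 1.56 and 1.74 in the 6 libraries.

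miR-27b-3p, a guide arm known for targets in lipid metabolism, had 3512, 2588 and 3341 CPM in the females and 4510, 4658 and 4882 CPM in the males, again without overlap. miR-27a-3p was far lower and went the other way, with 132, 93.6 and 139 CPM in the females and 95.9, 98.3 and 86.2 CPM in the males. Female library 2 lay among the males for miR-27a-3p on this scale, and its 93.6 CPM was between the lowest and the middle male value.

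miR-24-3p, the guide arm that both clusters encode, had 4045, 3355 and 6445 CPM in the females and 4446, 2905 and 2861 CPM in the males. Male library 1 lay inside the female range and female library 3 was well above all others. miR-24-3p made up 37.0%, 37.9% and 50.0% of the reads of the 10 arms in the females and 31.4%, 23.4% and 23.7% in the males, which did not overlap.

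**Figure D2:**
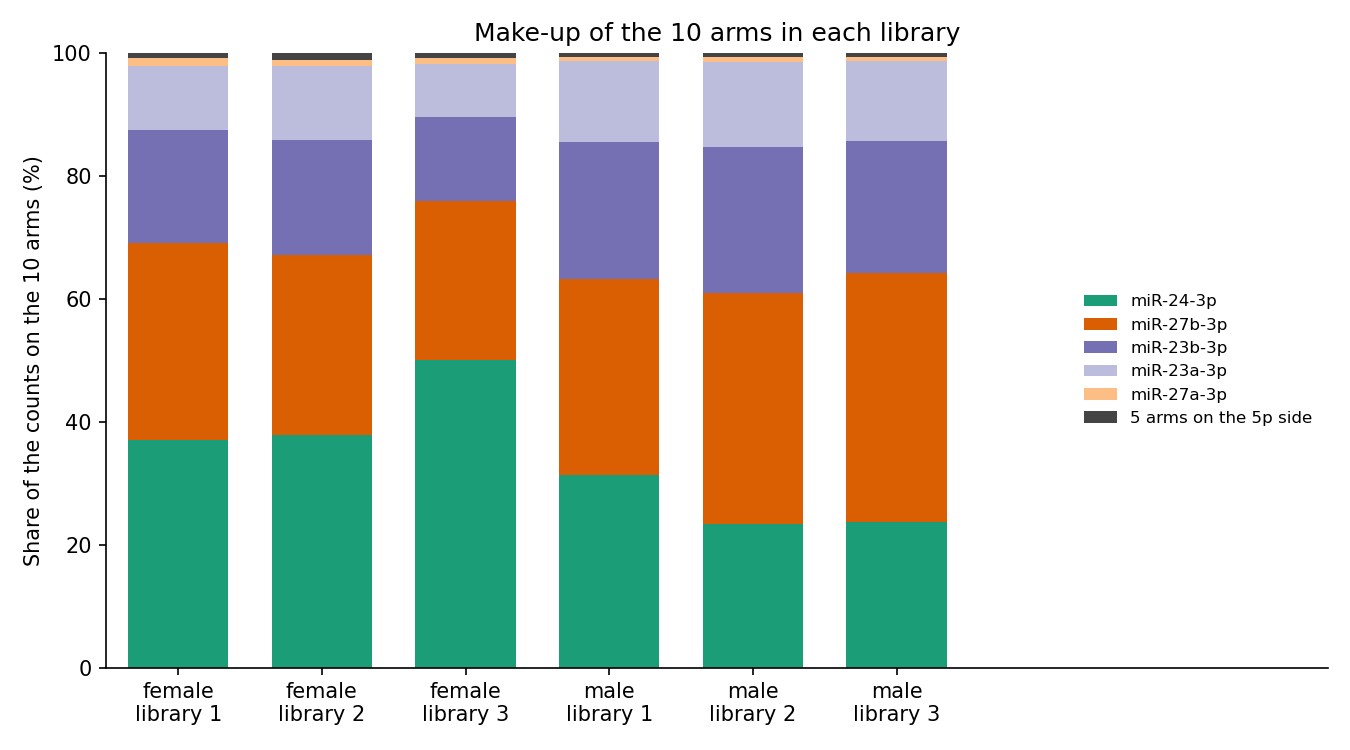
Share of the reads of the 10 arms (percent, from 0) taken by each guide arm and by the 5p arms in each of the 6 libraries. miR-24-3p takes 37.0% to 50.0% in the female libraries and 23.4% to 31.4% in the male libraries.

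By mean level over the 6 libraries, miR-24-3p (4009 CPM) and miR-27b-3p (3915 CPM) came first, and their order changed between libraries, with miR-24-3p higher in the 3 females and miR-27b-3p higher in the 3 males. miR-27b-3p exceeded miR-23b-3p, miR-23b-3p exceeded miR-23a-3p, and miR-23a-3p exceeded miR-27a-3p in 6 of 6 libraries. In rank among all listed miRNAs, miR-24-3p was between 30 and 60, miR-27b-3p between 36 and 60, and miR-27a-3p between 217 and 261. Reads were not corrected for how well each arm is ligated and amplified, which was not measured, so levels of different arms are compared as reads.

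The opposite arms were low. miR-24-2-5p had 49.4, 59.0 and 63.96 CPM in the females and 40.2, 50.3 and 48.4 CPM in the males. miR-27b-5p followed, with 25.1, 21.2 and 18.2 CPM in the females and 37.4, 17.4 and 16.9 CPM in the males. For both arms the sexes overlapped, and in each of the 6 libraries miR-24-2-5p was above miR-27b-5p and below miR-27a-3p.

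miR-24-1-5p had 15.1, 5.26 and 6.82 CPM in the females and 8.89, 4.26 and 6.43 CPM in the males. miR-23b-5p had 0, 14.9 and 3.88 CPM in the females and 8.67, 6.01 and 4.57 CPM in the males. miR-23a-5p had 0.878, 0 and 1.90 CPM in the females and 1.39, 4.24 and 1.95 CPM in the males. The sexes overlapped for each of these 3 arms, and their order among themselves was not the same in every library. A count of 0 allows up to 3 counts, which is 0.203 CPM for miR-23b-5p in female library 1 and 0.0505 CPM for miR-23a-5p in female library 2.

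The zeros of the miR-23 5p arms fell in different female libraries. Female library 2 had 887 reads of miR-23b-5p and 0 of miR-23a-5p, and female library 1 had 0 and 13 reads. The 3p arms of the same hairpins had 17065 to 97899 reads in these libraries.

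The remaining arm of the clusters is miR-27a-5p, which is not among the 10 and is described for its hairpin. It had 1.35, 5.07 and 3.77 CPM in the females and 9.42, 10.3 and 12.4 CPM in the males, without overlap. In edgeR's quasi-likelihood test its log2 fold change, male over female, was 1.49 (SE 0.81, adjusted p = 0.346), and without female library 2 its adjusted p was the lowest of the 6 fits that each left out 1 library, at 0.0144.

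The sexes were compared over 1120 miRNAs that reached 10 reads in all libraries together, and all 10 arms were among them. With counts scaled by TMM and p-values adjusted by Benjamini-Hochberg, edgeR called 0 of the 10 arms at an adjusted p below 0.05, against 8.48% of all miRNAs tested, 3.21% male-biased and 5.27% female-biased. At an unadjusted p below 0.05 there were 5 of the 10 arms, the 5 guide arms, against 18.4% of all. By DESeq2 there were 3 of 10, against 11.5% of all. The median log2 fold change was -0.10 over the 10 arms and -0.015 over all miRNAs tested.

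The guide arms with higher male values were miR-23b-3p (log2 fold change 0.56, SE 0.20, edgeR adjusted p = 0.0869), miR-23a-3p (0.50, SE 0.19, adjusted p = 0.129) and miR-27b-3p (0.46, SE 0.21, adjusted p = 0.215). Those with higher female values were miR-24-3p (-0.57, SE 0.23, edgeR adjusted p = 0.164) and miR-27a-3p (-0.49, SE 0.24, adjusted p = 0.263). None passed the threshold in this fit. The value of miR-24-3p leaned on female library 3, without which it was -0.28 (edgeR adjusted p = 0.598). After TMM scaling, 4 of the 10 arms did not overlap between the sexes, 3 with the males above and 1, miR-27a-3p, with the females above, against 23.8% of all miRNAs tested, 12.0% with the males and 11.9% with the females above.

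The 5 opposite arms had edgeR adjusted p-values from 0.480 for miR-24-2-5p to 0.998 for miR-27b-5p. Their standard errors ran from 0.31 to 1.89 on the log2 scale, so differences of the size measured for the guide arms could not be resolved for the arms with the lowest counts. The largest fitted value, 1.41 for miR-23a-5p (SE 1.89, edgeR adjusted p = 0.753), rests on 0 to 186 reads per library. Without female library 2, which had no read of it, the value was 0.83, and those of miR-23b-5p and miR-27b-5p turned from -0.20 to 1.59 and from -0.0097 to 0.042.

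**Figure D3:**
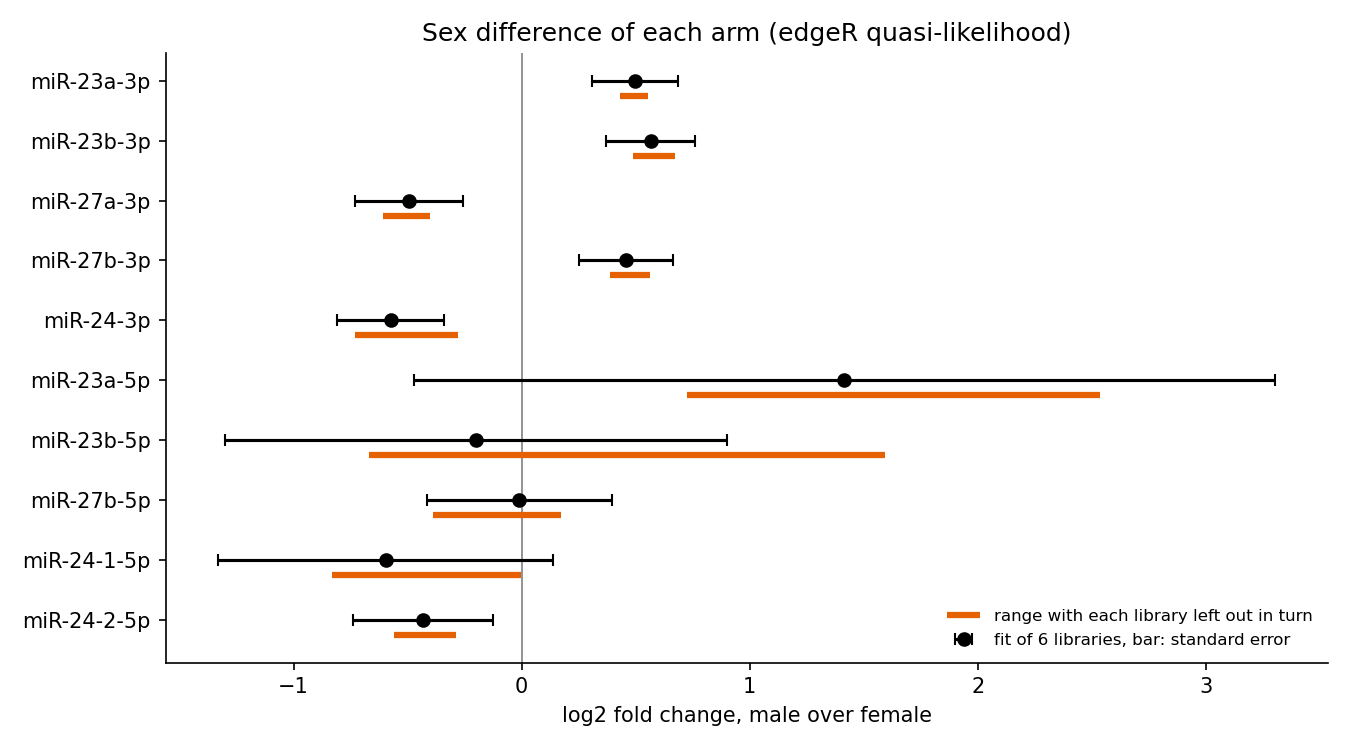
Log2 fold change, male over female, of each arm in edgeR's quasi-likelihood fit, with bars of 1 standard error, a line at 0, and below each point the range of the fits that leave out 1 library. The miR-23 guide arms and miR-27b-3p lie above 0, miR-24-3p and miR-27a-3p lie below 0, and the bars of the 5p arms of miR-23 are the longest.

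The call for these arms depended on the library that stood apart and on the correction used. Without female library 2, edgeR called 4 of 10 arms, against 18.3% of all. They were miR-23a-3p (0.52, adjusted p = 0.0416) and miR-23b-3p (0.56, adjusted p = 0.0308), higher in males, and miR-24-3p (-0.72, adjusted p = 0.00498) and miR-27a-3p (-0.61, adjusted p = 0.0345), higher in females. The paper itself used DESeq2 with RUVr, which estimates terms for unwanted variation from residuals, and does not state the number of factors. With 1 RUVr factor, DESeq2 called the 5 guide arms, against 20.2% of all, and edgeR called the 2 miR-23 guide arms, against 13.1%. The same 2 arms were called when counts were scaled by library size, against 7.95% of all, and with no filter on low counts, against 8.94%. No arm was called by edgeR with upper quartile scaling (8.12% of all), with 10 reads required in every library (0 of 8 arms tested, against 17.6%) or with the replicate number as a block (8.21%). Nor was one called when another library was left out, against 8.50%, 5.66%, 2.73%, 8.32% and 7.65% of all without female libraries 1 and 3 and male libraries 1, 2 and 3. The direction of each of the 5 guide arms was the same in these fits.

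Some markers of other cell types differed by sex in the same direction as some of these arms, and only the direction was compared here. All 4 mesenchyme and all 4 skeletal muscle markers and 5 of 6 epithelium markers were called male-biased, in the direction of miR-23a-3p, miR-23b-3p and miR-27b-3p, and of the epithelium markers miR-141-3p had no read in at least 1 library. Of 4 endothelium and vessel wall markers, miR-126a-3p and miR-126a-5p were called female-biased, in the direction of miR-24-3p, and this list summed to 7714 to 14683 CPM in females and 6031 to 8155 CPM in males. On the same list miR-145a-5p went the other way, with 163, 93.9 and 139 CPM in the females and 231, 180 and 195 CPM in the males, and was not called (log2 fold change 0.49, edgeR adjusted p = 0.202). One of the 4 brain markers was called female-biased and none male-biased. The 3 red blood cell markers summed to 1595 to 1972 CPM in males against 646 to 1354 CPM in females. Most of this sum was miR-486a-5p, the only one of them called male-biased, at 1571 to 1930 against 611 to 1341 CPM. miR-451a (log2 fold change 0.18, edgeR adjusted p = 0.869) and miR-144-3p (-0.97, adjusted p = 0.703) were not called. Of 3 leukocyte markers none was called in either direction, at a summed 19.3 to 63.0 CPM over all libraries. The part of these markers in the results of the arms was not tested.

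The share of each family that came from the miR-23b-27b-24-1 cluster differed widely by the arm used to read it. By miR-23-3p it was 63.5%, 60.9% and 61.1% in the females and 62.9%, 63.3% and 62.6% in the males. By miR-27-3p it was 96.4%, 96.5% and 96.0% in the females and 97.9%, 97.9% and 98.3% in the males. By the miR-24 5p arms it was 23.4%, 8.18% and 9.63% in the females and 18.1%, 7.80% and 11.7% in the males, so this cluster held the larger share of the miR-23 and miR-27 guide arms and the smaller share of the miR-24 5p arms. No share of miR-24-3p can be read, since it is the same from both clusters.

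Counting error did not cover these gaps. The widest 95% Wilson interval of a library was 0.873 percentage points for miR-23-3p, 0.316 points for miR-27-3p and 5.36 points for the miR-24 5p arms, and it covers counting error only. Within libraries, the share by miR-27-3p exceeded that by miR-23-3p by 34.8 ± 1.02 points (SD, n = 6) in 6 of 6 libraries (two-sided exact sign-flip permutation test, p = 0.031, adjusted over 4 tests 0.0417), which is the smallest p that 6 libraries allow. The share by the miR-24 5p arms differed by -49.2 ± 5.68 points from that by miR-23-3p and by -84.0 ± 6.44 points from that by miR-27-3p (SD, n = 6), each lower in 6 of 6 libraries with the same exact permutation p.

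By the miR-23 5p arms the share ran from 0% to 100%, the values of female libraries 1 and 2, with 67.1% in female library 3 and 86.2%, 58.7% and 70.1% in the males. Their share was higher than that by miR-23-3p in 4 of 6 libraries and lower in 2 (exact sign-flip permutation test, mean difference 1.31 points, p = 0.875, adjusted 0.875). With 13 reads in female library 1 the Wilson interval was 22.8 points wide, but with 887 reads in female library 2 it was 0.431 points wide. The spread of this share between libraries, with an SD of 34.5 points (n = 6), was thus wider than counting error.

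**Figure D4:**
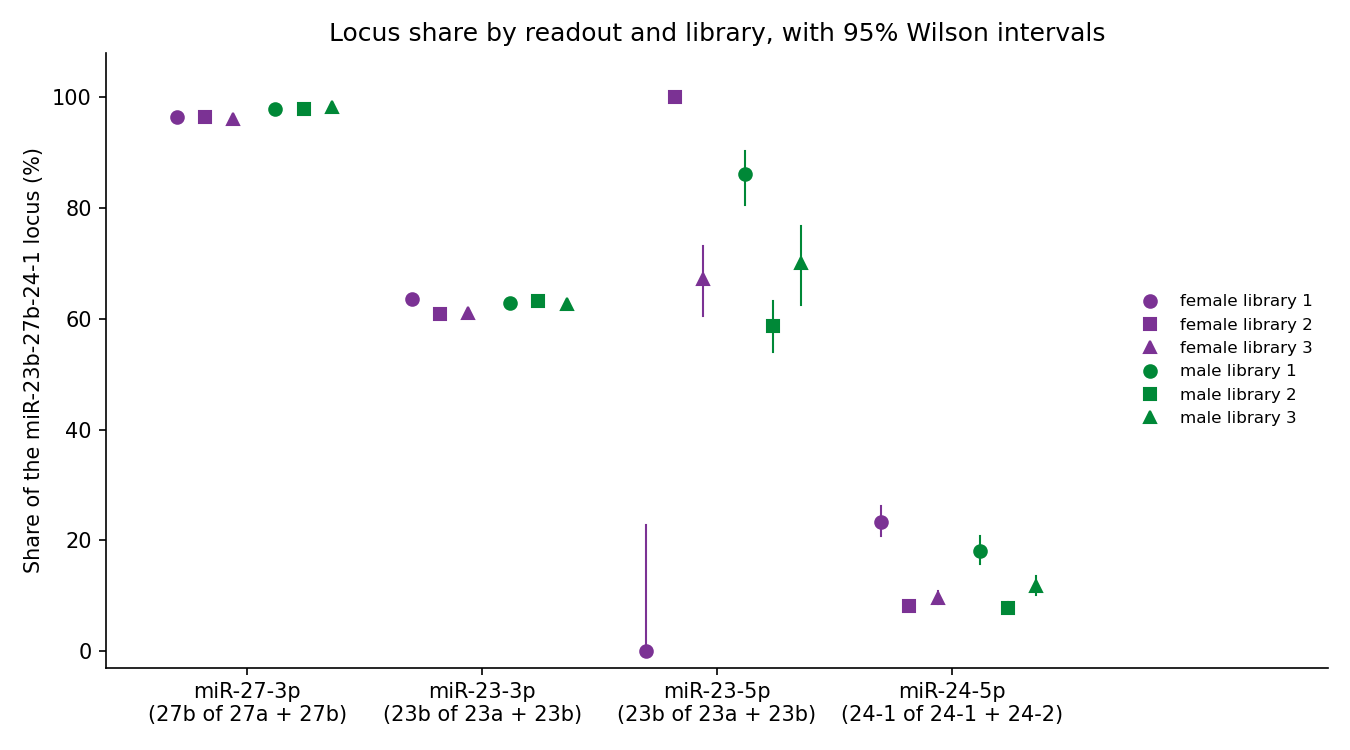
Share of the miR-23b-27b-24-1 cluster (percent of the reads of both clusters, from 0 to 100) read from the miR-23 3p arms, the miR-27 3p arms, the miR-24 5p arms and the miR-23 5p arms, with 1 point per library and its 95% Wilson interval. The readings fall at 60.9% to 63.5%, 96.0% to 98.3%, 7.80% to 23.4% and 0% to 100%.

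Between the sexes, the share by miR-27-3p was 1.75 points higher in males, with no overlap (exact permutation test, p = 0.1, adjusted over 12 tests 0.30). The share by miR-23-3p was 1.10 points higher in males and overlapped (p = 0.4 by exact permutation, adjusted 0.75), and the difference was 0.631 points without female library 2. As a ratio, miR-27b-3p was 26.5, 27.6 and 24.01 times miR-27a-3p in the females and 47.0, 47.4 and 56.7 times in the males. The miR-27 5p arms, which differ at 8 positions, went the other way. By them the share was 94.9%, 80.7% and 82.8% in the females and 79.9%, 62.9% and 57.6% in the males, without overlap. That reading rests on 20 to 451 reads of miR-27a-5p per library, an arm outside the 10, and was given no test.

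Ratios within a library do not depend on the scaling between libraries, and 8 of them were compared by sex, in the same family of 12 tests as the 4 shares. The ratio of miR-27a-3p to miR-23a-3p, guide arms of neighbouring hairpins of one transcript, was 0.115, 0.0884 and 0.125 in the females and 0.0516, 0.0573 and 0.0554 in the males. The log2 ratio was lower in males by 0.99 (mean -4.19 against -3.21), and every female library was above every male library (exact permutation test, p = 0.1, adjusted 0.30). In the other cluster the ratio of miR-27b-3p to miR-23b-3p was 1.75, 1.57 and 1.91 in the females and 1.43, 1.58 and 1.87 in the males, which overlapped (exact permutation test, p = 0.5, adjusted 0.75).

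miR-24-3p exceeded the sum of miR-23a-3p and miR-23b-3p in the 3 female libraries, at 1.28, 1.24 and 2.25 times, and was below it in the 3 male libraries, at 0.887, 0.622 and 0.687 times. The mean log2 ratio was 0.61 in females and -0.47 in males (exact permutation test, p = 0.1, adjusted 0.30). Against the sum of miR-27a-3p and miR-27b-3p the ratio was 1.11, 1.25 and 1.85 in the females and 0.965, 0.611 and 0.576 in the males, also without overlap (exact permutation test, p = 0.1, adjusted 0.30). Both ratios share miR-24-3p and are not independent of each other, and no test of this design with 3 libraries against 3 can go below 0.1.

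**Figure D5:**
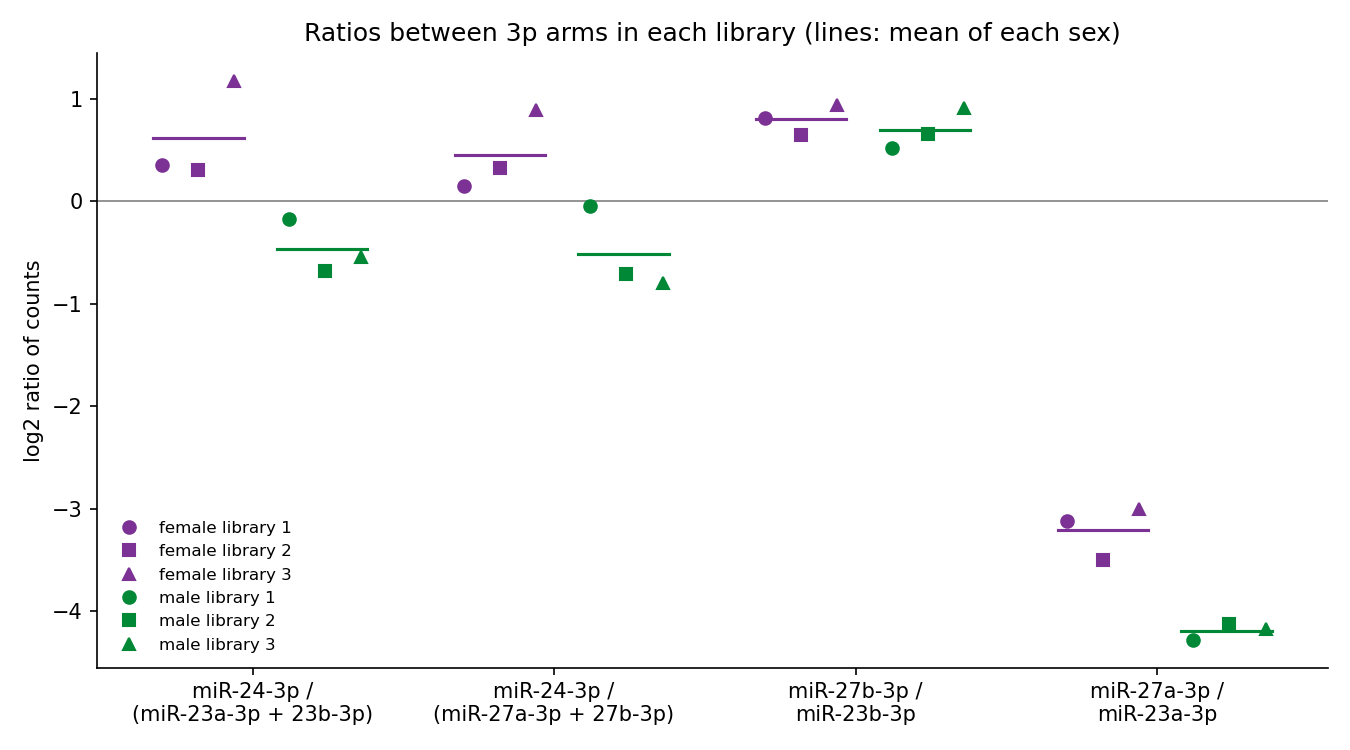
Log2 ratios between guide arms in each library by sex, with 1 point per library and a bar at the mean of each sex. The ratios of miR-24-3p to miR-23-3p and to miR-27-3p and of miR-27a-3p to miR-23a-3p are higher in every female than in every male library, and the ratio of miR-27b-3p to miR-23b-3p overlaps.

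The balance of the arms of a hairpin differed between hairpins. The 5p arms of miR-24 summed to 1.09% to 1.88% of miR-24 reads and miR-27b-5p to 0.345% to 0.822% of miR-27b reads. miR-23b-5p reached at most 0.898% of miR-23b reads and miR-23a-5p at most 0.246% of miR-23a reads. By sex, these 4 ratios gave exact permutation p-values from 0.4 to 0.9 and overlapped.

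For miR-27a, with an arm outside the 10, the 5p arm was 1.01%, 5.14% and 2.64% of the hairpin's reads in the females and 8.94%, 9.46% and 12.6% in the males. This ratio was looked at after its values were seen and was given no test. The 5p arm was above, and the 3p arm after TMM scaling below, the female levels in each male library.

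The pattern of miR-24-3p, the arm with the highest mean level, was set against 246 other miRNAs with a mean of at least 100 CPM, by the root mean square difference of centred log2 CPM over the 6 libraries. The nearest were miR-411-5p (0.0829), miR-143-3p (0.102), miR-130a-3p (0.123), miR-181c-5p (0.165) and miR-126a-3p (0.179), against a median of 0.525 over the others. miR-143-3p is known from smooth muscle of the vessel wall and miR-126a-3p from endothelium. The nearest, miR-411-5p, and miR-130a-3p and miR-181c-5p are on none of the marker lists used here. On the list of endothelium and vessel wall, miR-145a-5p had a log2 fold change opposite in direction to that of miR-24-3p (0.49 against -0.57). Of the other arms, miR-27a-3p stood at position 27, and miR-27b-3p, miR-23a-3p and miR-23b-3p at positions 155, 159 and 174.

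The same measure was then taken for miR-23b-3p and miR-27b-3p, guide arms of the miR-23b-27b-24-1 cluster, a choice made after the data were seen. The nearest of all to miR-23b-3p was miR-23a-3p, from the other chromosome, at 0.0627, followed by miR-652-3p at 0.0713. How well the reads of miR-23a-3p and miR-23b-3p are told apart was not checked. For miR-27b-3p, miR-23b-3p and miR-23a-3p stood at positions 8 and 9, and miR-27a-3p, which differs from it by 1 base, stood at position 156. All of these distances come from the same 6 libraries, 3 of each sex, and are a description.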

How the data were processed

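The 6 samples are small RNA libraries of embryonic mouse brain, 3 per sex, grouped by the sex in their labels. The authors trimmed reads with cutadapt 1.15, mapped them with Bowtie 1.2.1 to miRBase v.21 and mm9, and counted known miRNAs with miRDeep2. The deposited files hold the authors' raw counts per mature miRNA, without normalization. How reads that fit several arms were assigned is not given in the sources used here. No molecular identifiers are named, so intervals and floors cover counting error only.

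CPM were taken over the library total. miRNAs with at least 10 reads over the 6 libraries were scaled by TMM and tested by edgeR 4.0.16 (quasi-likelihood, Benjamini-Hochberg, threshold 0.05), with limma 3.58.1, DESeq2 1.42.0 and R 4.3.3. SE is the absolute log2 fold change over the square root of F. Shares and ratios used exact permutation tests in Python 3.11.15 with scipy 1.17.1. An arm with no read was set to 3 counts in log2 ratios. Scripts were tested on simulated data.

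The members, the marker lists and the tests were chosen with earlier results of these data known. The named miRNAs are the 10 arms, miR-27a-5p, and the 5 miRNAs of at least 100 CPM nearest in pattern to the arm with the highest mean. miR-652-3p is named for its nearness to miR-23b-3p, which was looked at after the data were seen. Of the markers, those of brain, of endothelium and vessel wall and of red blood cells are named, and miR-141-3p for its missing reads. Alternatives were library size, upper quartile, DESeq2, 1 RUVr factor (written out from deviance residuals of an edgeR fit with upper quartile scaling), other filters, a replicate block, summed counts and each library left out.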

Additional observations from a re-analysis of the deposited data

How the results depend on the processing

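The number of the 10 arms called, 0 with TMM and edgeR, was 2 with library size scaling, 3 with DESeq2, 2 with edgeR and 5 with DESeq2 when 1 RUVr factor was added, and 2 with no filter. It stayed 0 with upper quartile scaling and with at least 10 reads in every library, where 8 arms were tested. Leaving out single libraries gave 0 to 4, with 4 without female library 2 and 0 in the other 5 fits. Over all miRNAs, calls went from 95 (36 male-biased, 59 female-biased) to 89 (50 and 39) by library size, 104 (52 and 52) with no filter, 147 (68 and 79) by edgeR and 226 (124 and 102) by DESeq2 with RUVr, and ran from 30 (male library 1 left out) to 203 (female library 2 left out). The median log2 fold change of all miRNAs shifted by 0.12 with library size and by 0.23 and 0.26 with RUVr in edgeR and DESeq2, and the 5 guide arms kept their direction in every fit run.

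The fitted change of miR-23b-5p, -0.20, became 0.027 by library size, 0.82 and 0.85 with RUVr in edgeR and DESeq2, and 0.98 with a replicate block, and ran from -0.67 to 1.59 with a library left out. That of miR-27b-5p, -0.0097, became 0.15 by library size, 0.040 by upper quartile, 0.034 by DESeq2, 0.025 and 0.064 with RUVr and 0.091 with no filter, and ran from -0.39 to 0.17. From counts summed over each sex, the male minus female share by the miR-24 5p arms was 0.288 points and that by the miR-23 5p arms -25.3 points (-0.92 as a mean log2 ratio), and the log2 ratio of miR-23b-5p to miR-23b-3p differed by -1.34. With a library left out these ran from -3.96 to 3.64 points, from -11.9 to 38.1 points and from -1.07 to 2.18, and the miR-24 arm ratio from -0.14 to 0.34. The cause was not tested.

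With a library left out, the share by miR-27-3p exceeded that by miR-23-3p by 34.6 to 35.2 points, that by the miR-24 5p arms differed from them by -51.1 to -48.0 and -86.2 to -82.8 points, and the exact p was 0.0625, the smallest that 5 libraries allow. The share by the miR-23 5p arms less that by miR-23-3p ran from -6.25 to 14.3 points. Replicate numbers did not pair the samples: same-numbered libraries had correlations of deviations of -0.05, -0.01 and 0.05, and not every library correlated best with its own number. With the number as a block, 0 of the 10 arms and 92 miRNAs in all were called.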

Other observations

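The ratio of miR-24-3p to the summed endothelium and vessel wall markers (miR-126a-3p, miR-126a-5p, miR-143-3p and miR-145a-5p) was 0.457, 0.435 and 0.439 in female libraries 1 to 3 and 0.545, 0.464 and 0.474 in male libraries 1 to 3. The highest ratio was 1.25 times the lowest, while the level of miR-24-3p itself ran from 2861 to 6445 CPM. Most of the marker sum came from miR-126a-3p and miR-143-3p, which are among the 5 miRNAs nearest to miR-24-3p in pattern, so that a narrow range of the ratio follows from that likeness and is no separate result. miR-145a-5p, also in the sum, was higher in every male than in every female library. The ratio was chosen after the values were seen and was given no test.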
